A study of Mus musculus with 18 samples.

Results

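CD8+ cells made on OP9-DL1 stroma were compared with CD4+CD8+ cells grown on the same stroma, as the first group minus the second, over all genes. The comparison used 8 of the 18 libraries of the study: 5 titled Artificial CD8 in the labels (here OP9 CD8) and 3 titled CD4+CD8+ (here DP, for double positive). Of 43280 genes in the count tables, 13922 passed a filter on low counts and were tested. Both groups are mouse cells whose source is given as Pmel iPSC, differentiated on OP9-DL1, with the treatment field reading None. Pmel is the usual name of a mouse line with a transgenic alpha-beta T-cell receptor against a melanocyte protein, and the labels say no more about it. OP9-DL1 is a bone marrow stromal line that carries the Notch ligand Delta-like 1. The flow sort used CD45, CD4, CD8 and the alpha-beta receptor, and cells carrying NK1.1, CD11c or the gamma-delta receptor were gated out. The labels give no genotype, age or days in culture, and do not say whether replicates came from separate cultures, so the p-values reflect the spread among these libraries, which may be technical. The question the design implies is how far the CD8+ cells of the culture differ from the CD4+CD8+ cells that grow on the same stroma.

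In the thymus, T-cell precursors pass through a stage that carries neither coreceptor, then a CD4+CD8+ stage, and then keep either CD4 or CD8. At the first of these transitions the beta chain pairs with the pre-T-cell receptor alpha chain, and Notch signals and the recombinase are active. CD4+CD8+ cells depend on Bcl-xL for survival and rearrange the alpha chain. A positively selected CD8 cell stops recombination, switches from Bcl-xL to Bcl-2 and gains homing and egress receptors. Immature cells on the way to the CD4+CD8+ stage can also carry CD8 alone, so the coreceptors by themselves do not separate those stages.

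Total counts per library ran from 11747367 to 12208210 in DP and from 15953388 to 19305751 in OP9 CD8, so depth and group cannot be told apart. Values are library-size-scaled counts after TMM scaling (CPM), and 3 counts equal 0.243 to 0.259 CPM in the DP libraries. Mitochondrial transcripts took 0.938% to 1.27% of counts in DP and 1.40% to 1.91% in OP9 CD8, with no overlap, and their part in the results was not tested. DP 1 stood apart, with a Spearman correlation across genes of 0.975 and 0.976 with DP 2 and DP 3, which correlated at 0.990 with each other. The sum of 9 OP9 stromal markers was 1.56 CPM in DP 1, 33.2 in DP 2, 59.0 in DP 3 and 18.6 to 29.1 in OP9 CD8, with Dcn and Lum at 0 in both groups. Pdgfra was at 0 in OP9 CD8, where Pdgfrb, given below, made up most of the sum in every library. The sum of 7 B-cell markers lay at 6.28 to 7.96 CPM in DP and 3.45 to 7.58 in OP9 CD8, with Ms4a1 and Pax5 at 0 throughout. The 6 myeloid markers summed to 0.778 to 4.77 CPM in DP and 1.44 to 6.04 in OP9 CD8. The sum of 11 DP thymocyte markers, Cd4 among them, did not overlap (3714 to 4200 CPM in DP, 2495 to 2650 in OP9 CD8). Nor did that of 6 CD8 T-cell markers, also lower in OP9 CD8 (4210 to 5891 and 3368 to 3730). Both sets hold Cd8a and Cd8b1, so these sums are not independent. Cd24a of the DP set lay higher in OP9 CD8, as given below. For 7 NK or innate markers the sum was likewise lower without overlap (118 to 188 and 88.3 to 107). Klrd1, given below, made up most of it in every library, so it says little of the other members. Those of 4 erythroid markers also summed lower in OP9 CD8 without overlap (46.5 to 56.05 in DP and 30.5 to 41.8 in OP9 CD8). In contrast, 5 gamma-delta markers summed higher in OP9 CD8 without overlap (1801 to 2035 in DP and 2236 to 2636 in OP9 CD8). The part of these sums in the results was not tested.

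The sorted populations differed in 2041 of the genes tested (14.7%). By edgeR's quasi-likelihood test on all 18 libraries with Benjamini-Hochberg adjustment, 910 genes were higher in OP9 CD8 (6.54% of those tested) and 1131 were lower (8.12%). Among them, 506 rose at least 2-fold (3.63%) and 325 fell at least 2-fold (2.33%). All 5 OP9 CD8 libraries lay above all 3 DP libraries in 1972 genes (14.2%) and below them in 2063 (14.8%). These percentages are the background for counts of a gene list by this fit or by overlap, and the median fitted log2 change of all genes tested was 0.0022. Fitted the same way on the 8 libraries alone, 1650 genes rose and 1712 fell of 12822 tested. At an unadjusted p under 0.05 over all 18 libraries, 1891 rose and 2077 fell of 13922. By DESeq2 1319 rose and 1235 fell, and by limma-voom 1023 and 1212. A list count under another fit or threshold is to be set against the totals of that fit or threshold. With DP 1 as the only DP library, 633 rose and 712 fell, which rests on a single DP sample whose spread is taken from the other groups. Without DP 1, DP 2 or DP 3 alone, 522, 594 and 586 genes rose. Of the 179 named genes that passed, 76 did not pass with DP 1 as the only DP library, 32 of them under no other alternative, and this is not repeated gene by gene. No gene called in 1 direction was called in the other under the 17 alternatives. Fold changes below are fitted log2 values of OP9 CD8 relative to DP, with ± SE of the difference of log2 CPM. In a bulk sample, fewer cells of a type and less RNA per cell cannot be told apart.

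**Figure D1:**
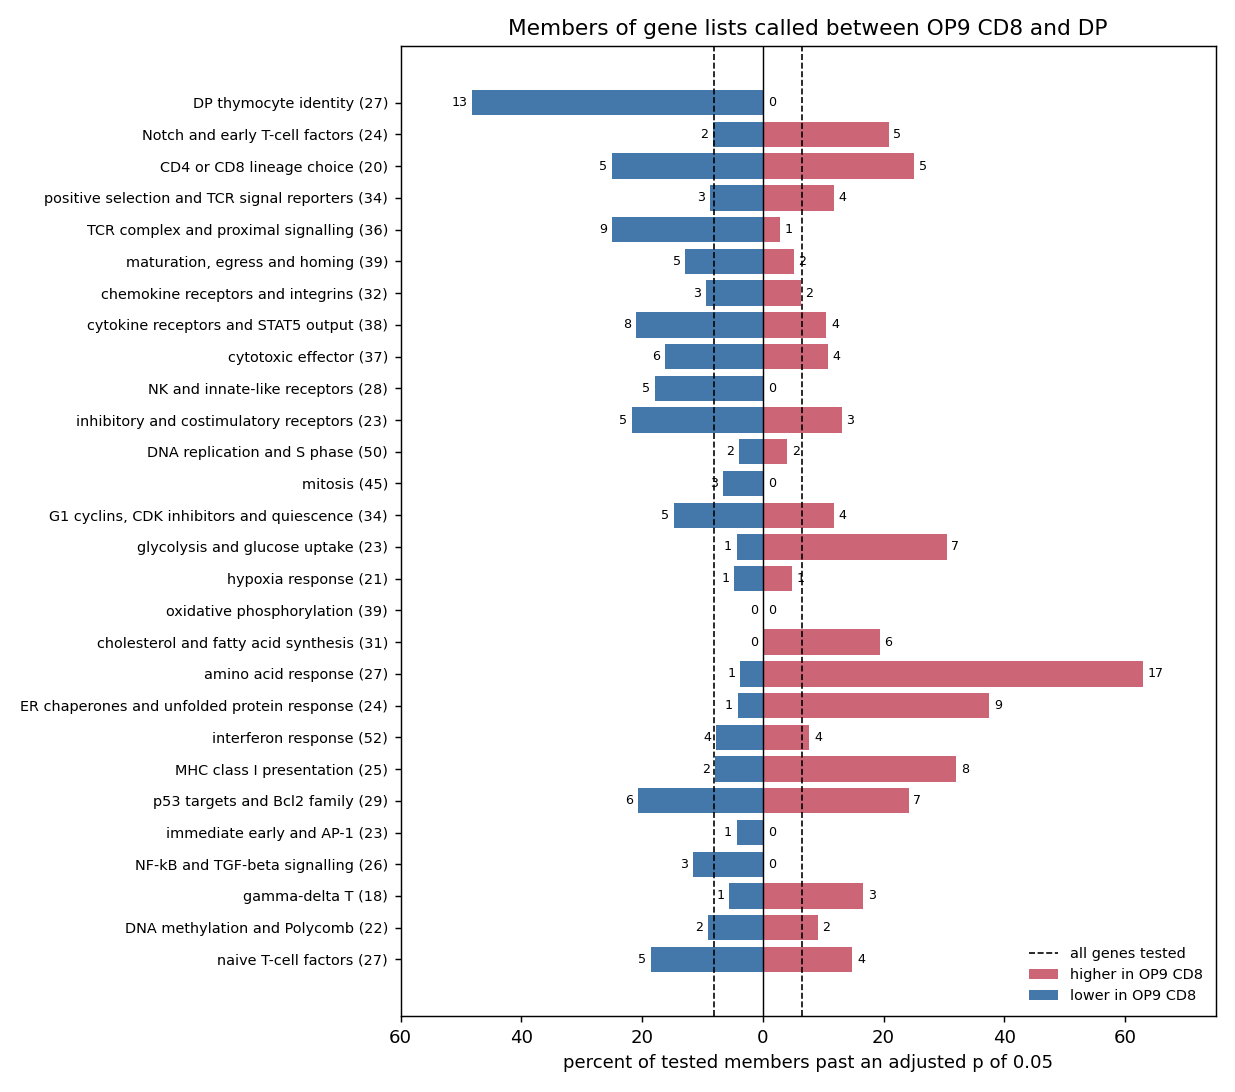
Percent of the tested members of each gene list that passed an adjusted p of 0.05, to the right where OP9 CD8 was higher and to the left where it was lower, with the number of members tested in brackets and the number called at the bar ends. Dashed lines give the shares over all genes tested (6.54% and 8.12%), and the longest bars are the amino acid response genes on the right and the DP thymocyte identity genes on the left.

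The coreceptors matched the sort. Cd4, the coreceptor for MHC class II, was at 155, 253 and 263 CPM in DP 1 to 3 and at 2.63, 3.95, 1.89, 4.42 and 9.18 CPM in OP9 CD8 1 to 5. Every OP9 CD8 library lay far below every DP library, with a log2 change of -5.65 ± 0.45 (adjusted p = 1.4e-06). Cd8a, the alpha chain of the CD8 coreceptor, had 1004, 805 and 810.2 CPM in DP and 569, 567, 584, 562 and 644 CPM in OP9 CD8. The groups did not overlap, and the lower level in OP9 CD8 did not pass the test at -0.58 ± 0.11 (adjusted p = 0.094). Cd8b1, the beta chain, had 1746, 1234 and 1248 CPM in DP and 818, 884, 1063, 894 and 943 CPM in OP9 CD8. It fell, with a log2 change of -0.61 ± 0.18 (adjusted p = 0.00761), a call that did not hold without DP 1 (adjusted p = 0.0723). Neither coreceptor chain of CD8 was thus measured higher in the CD8+ cells than in the CD4+CD8+ cells.

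Genes of the choice between CD4 and CD8 changed in both directions: 5 rose and 5 fell of 20 members tested (25.0% each way). The falls include 2 coreceptor genes, Cd4, on which the cells were sorted, and Cd8b1. Zbtb7b, which encodes the CD4-lineage factor ThPOK, had 2 counts in DP 2, 3 in OP9 CD8 1 and none in the other 6 libraries. Runx3, which silences Cd4 in CD8 cells, had 138, 118 and 111 CPM in DP and 88.6, 83.6, 103, 79.6 and 86.1 CPM in OP9 CD8. It was lower in all OP9 CD8 libraries, with a log2 change of -0.47 ± 0.11 (adjusted p = 0.0068). Tox2, a relative of the lineage factor Tox, had 12.6, 9.8 and 11.4 CPM in DP and 83.3, 84.1, 72.3, 85.7 and 78.99 CPM in OP9 CD8. That is the largest rise of the list, at 2.84 ± 0.11 (adjusted p = 0.000126). Tox itself, needed for CD4 cells, rose less, by 0.60 ± 0.069 (adjusted p = 0.000865). Gata3, another factor of the CD4 lineage, had 80.5, 91.96 and 79.5 CPM in DP and 129.9, 127, 129.6, 125 and 134 CPM in OP9 CD8 and rose by 0.62 ± 0.069 (adjusted p = 0.000756). Patz1, also called MAZR and a repressor of Zbtb7b, rose by 0.49 ± 0.081 (adjusted p = 0.00265). Satb1, a chromatin organiser of CD4+CD8+ cells, had 909, 981 and 948 CPM in DP and 618, 599.6, 697, 675 and 613 CPM in OP9 CD8. It was lower in every OP9 CD8 library, with a log2 change of -0.56 ± 0.053 (adjusted p = 0.0058).

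Genes of the CD4+CD8+ state fell as a group. Of the DP thymocyte identity list, 0 rose and 13 fell of 27 members tested, 48.1% against 8.12% of all genes, with a median log2 change of -0.54. The 13 include Cd4, whose fall was set by the sort. No member rose by edgeR (1 at an unadjusted p under 0.05, 0 by DESeq2 and 1 by limma-voom). The number that fell was 8 to 12 (moved by over 1.5 times without DP 3 or OP9 CD8 2) with single libraries left out, 16 in the fit of the 8 libraries alone and 5 with DP 1 as the only DP library. Ets2, a transcription factor of the list, had 234, 267 and 254 CPM in DP and 45.9, 47.4, 35.5, 44.7 and 47.2 CPM in OP9 CD8. All 5 OP9 CD8 libraries lay well below all 3 DP libraries, with a log2 change of -2.51 ± 0.10 (adjusted p = 6.96e-09), and the call held under all 17 alternatives. Bcl6, a repressor found in CD4+CD8+ thymocytes, had 15.1, 34 and 40.01 CPM in DP and 3.74, 4.63, 5.51, 2.69 and 10.2 CPM in OP9 CD8. DP 1 was the lowest of its group but still above every OP9 CD8 library, and the log2 change was -2.47 ± 0.53 (adjusted p = 0.000294). Id3, an inhibitor of E proteins that receptor signals induce, had 408, 267 and 290.4 CPM in DP and 209.7, 208, 217, 231 and 242 CPM in OP9 CD8. It fell by 0.54 ± 0.19 (adjusted p = 0.0274), which did not hold without DP 1, OP9 CD8 1, OP9 CD8 2 or OP9 CD8 3 (adjusted p = 0.0543 to 0.214) or with upper-quartile scaling (adjusted p = 0.0502). Tcf12, the E protein HEB, overlapped between the groups at 302 to 395 CPM in OP9 CD8 and 307 to 388 CPM in DP.

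The recombinase and the pre-T-cell receptor were lower but still present in OP9 CD8. Ptcra, the pre-T-cell receptor alpha chain, had 163, 114 and 108 CPM in DP and 22.2, 16.3, 14.7, 21.9 and 28.6 CPM in OP9 CD8. The groups did not overlap and the log2 change was -2.63 ± 0.25 (adjusted p = 0.0241). This call did not hold without DP 1, DP 2, DP 3, OP9 CD8 1, OP9 CD8 2, OP9 CD8 3 or OP9 CD8 4 (adjusted p = 0.0511 to 0.101) or with no low-count filter (adjusted p = 0.0892). Rag2, the second subunit of the recombinase, had 103, 169 and 168 CPM in DP and 61.4, 54.7, 56.8, 54.4 and 67.95 CPM in OP9 CD8. It fell by 1.31 ± 0.25 (adjusted p = 0.0218), and the call did not hold without DP 2, DP 3, OP9 CD8 2 or OP9 CD8 4 (adjusted p = 0.0511 to 0.0998) or in DESeq2 (adjusted p = 0.403). Rag1, its partner, had 258, 445 and 463 CPM in DP and 161, 149, 169, 149.7 and 136 CPM in OP9 CD8. Every OP9 CD8 library lay below every DP library, and the change of -1.35 ± 0.28 (adjusted p = 0.0873) did not pass the test. DP 1 was the DP library with the least Rag1 and Rag2. Dntt, which adds bases at the joints, had 130.1, 109 and 119 CPM in DP and 72.4, 71.2, 57.4, 73.03 and 87.2 CPM in OP9 CD8, at -0.72 ± 0.12 (adjusted p = 0.256). Xrcc4, part of the ligase that closes the joints, fell by 0.94 ± 0.24 (adjusted p = 0.0156), which did not hold without DP 1 or DP 3 (adjusted p = 0.0642 to 0.0774). In the rearrangement list 0 rose and 2 fell of 12 members tested. None rose by edgeR (2 at an unadjusted p under 0.05, 2 by DESeq2 and 1 by limma-voom), and 6 fell in the fit of the 8 libraries alone. For scale, Rag1 was at 0 to 3.07 CPM in the other CD8+ group of the study from Pmel iPSC (iRTE, 5 libraries) and at 0 in all 5 libraries of splenic naive CD8+ cells.

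Several genes of earlier thymocyte stages were higher in the CD8+ cells. Notch1, the receptor for the ligand on the stroma, had 297, 303 and 327 CPM in DP and 563, 456, 585, 535 and 527 CPM in OP9 CD8. It rose by 0.79 ± 0.075 (adjusted p = 0.000534), under all 17 alternatives. Runx1, a factor of early thymocytes that represses Cd4, had 62.01, 63.3 and 62.3 CPM in DP and 121, 109, 103, 114 and 99.2 CPM in OP9 CD8 and rose by 0.80 ± 0.051 (adjusted p = 0.0014). Il2ra, the interleukin-2 receptor alpha chain (CD25) and a marker of early precursors and of activated cells, had 199, 227 and 213 CPM in DP and 586, 560.3, 525.98, 499 and 499 CPM in OP9 CD8. All OP9 CD8 libraries lay more than 2-fold above all DP libraries, at 1.33 ± 0.072 (adjusted p = 0.0438). The call did not hold without DP 1, DP 2, DP 3, OP9 CD8 1, OP9 CD8 2, OP9 CD8 3, OP9 CD8 4 or OP9 CD8 5 (adjusted p = 0.0583 to 0.135) or with no low-count filter (adjusted p = 0.0916). Cd24a, a surface protein that immature thymocytes carry, had 150.2, 116 and 128 CPM in DP and 414, 398, 359, 366 and 373 CPM in OP9 CD8. With no overlap and a log2 change of 1.54 ± 0.12 (adjusted p = 0.0533) it just missed the threshold. Erg, a factor of blood progenitors, was low in both groups at 0.888 to 2.78 CPM in OP9 CD8 and 0.168 to 0.259 CPM in DP, and rose by 3.16 ± 0.29 (adjusted p = 0.011), which did not hold without DP 2 (adjusted p = 0.0559) or with the replicate block (adjusted p = 0.0652). The Notch targets Hes1 and Dtx1 overlapped between the groups, with Hes1 at 20.4 to 26.5 CPM in OP9 CD8 and 25.2 to 28.7 in DP. Dtx1 lay at 447 to 538 CPM in OP9 CD8 and 469 to 505 in DP. Of the list of Notch and early T-cell factors, 5 rose and 2 fell of 24 members tested. With single libraries left out 3 to 5 (moved by over 1.5 times without DP 2) rose, and 0 to 1 (moved by over 1.5 times without DP 1, DP 2, DP 3, OP9 CD8 1, OP9 CD8 2, OP9 CD8 3, OP9 CD8 4 or OP9 CD8 5) fell. The 2 that fell were Ptcra and Gfi1, a repressor of early lymphoid cells, at -0.62 ± 0.11 (adjusted p = 0.0397), which did not hold without DP 1, DP 2, DP 3, OP9 CD8 2, OP9 CD8 3, OP9 CD8 4 or OP9 CD8 5 (adjusted p = 0.0632 to 0.137) or under 3 other settings (adjusted p = 0.0516 to 0.0883).

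**Figure D2:**
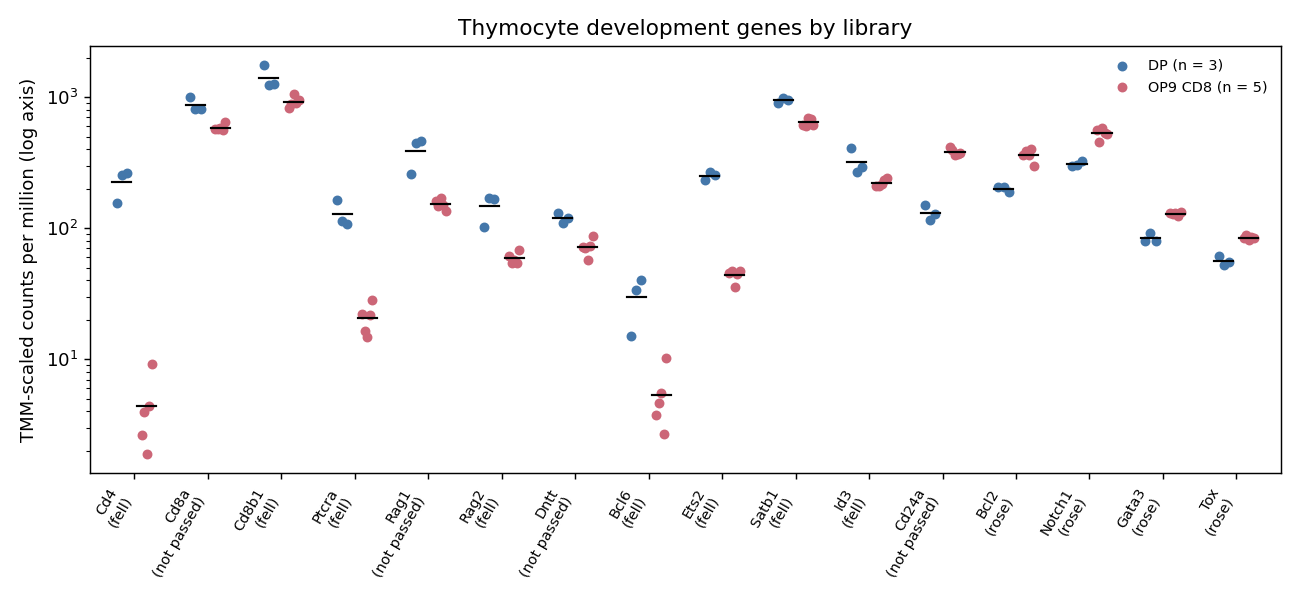
TMM-scaled CPM of 16 thymocyte genes in each of 3 DP and 5 OP9 CD8 libraries on a log axis, with a bar at each group mean and the outcome of the edgeR test under each name. Cd4, Ptcra, Bcl6 and Ets2 lie lower in all OP9 CD8 libraries, and Cd24a, Bcl2, Notch1, Gata3 and Tox lie higher.

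Transcripts of the alpha-beta receptor were present in both groups. Trbv14, the beta variable segment named Vbeta13 in the older scheme, had 8641, 6677 and 6402 CPM in DP and 6898, 7195, 6963, 7096 and 7577 CPM in OP9 CD8, and the groups overlapped. The constant gene Trbc2 had 9501, 6868 and 6524 CPM in DP and 7077, 7294, 7042, 6774 and 7398 CPM in OP9 CD8, also with overlap. Trbc1, the other beta constant gene, had 1983, 1221 and 1281 CPM in DP and 784, 764, 742, 797 and 871 CPM in OP9 CD8, lower in every OP9 CD8 library. Trac, the alpha constant gene, had 852, 621 and 630.4 CPM in DP and 472, 481, 532, 512 and 499 CPM in OP9 CD8, again lower in all 5. DP 1 was the highest library for each of these 4 genes, which were picked after their values were seen. Trbc1 and Trbc2 are near-identical copies between which reads can be split. The CD3 chain Cd3e overlapped, at 684 to 749 CPM in OP9 CD8 and 651 to 904 CPM in DP. Cd3g, another chain of the complex, fell by 0.52 ± 0.19 (adjusted p = 0.00851), which did not hold without DP 1 (adjusted p = 0.0846).

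Among proximal signalling genes of the receptor 1 rose and 9 fell of 36 members tested (25.0% fell), with a median of -0.20. With single libraries left out 4 to 8 (moved by over 1.5 times without DP 2, DP 3 or OP9 CD8 2) fell. Lcp2, the adaptor SLP-76, had 410.5, 391 and 379.9 CPM in DP and 253, 278, 274, 283 and 281 CPM in OP9 CD8 and fell by 0.52 ± 0.043 (adjusted p = 0.000802). Dgka, a kinase that ends diacylglycerol signals, had 695, 701 and 655 CPM in DP and 374, 391, 512, 441 and 406 CPM in OP9 CD8 and fell by 0.69 ± 0.085 (adjusted p = 0.00052). The member that rose was Cbl, a ubiquitin ligase that restrains the receptor, at 0.51 ± 0.075 (adjusted p = 0.0253), which did not hold without DP 2, DP 3 or OP9 CD8 4 (adjusted p = 0.0547 to 0.0856). Both activating and restraining members are therefore among those that changed.

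Reporters of positive selection did not move together: 4 rose and 3 fell of 34 members tested. Itm2a, a membrane protein induced by selection, had 49.7, 40.3 and 46.1 CPM in DP and 140.4, 147, 131, 111 and 133 CPM in OP9 CD8. It was higher in every OP9 CD8 library, by 1.55 ± 0.11 (adjusted p = 4.74e-05). Bcl2, the survival protein of mature thymocytes, had 208, 205 and 189 CPM in DP and 361, 388, 363, 402 and 297 CPM in OP9 CD8 and rose by 0.85 ± 0.087 (adjusted p = 0.000895). Bcl2l1, which encodes Bcl-xL of the CD4+CD8+ stage, had 158, 135 and 138 CPM in DP and 82.1, 92.01, 91.2, 101 and 99.6 CPM in OP9 CD8. Its log2 change of -0.62 ± 0.089 (adjusted p = 0.00621) ran opposite to Bcl2, and both calls held under all 17 alternatives. Gpr83, a receptor of maturing T cells, rose by 1.29 ± 0.19 (adjusted p = 0.0304), which did not hold without DP 1, DP 2, DP 3, OP9 CD8 1, OP9 CD8 2 or OP9 CD8 4 (adjusted p = 0.0569 to 0.115) or with the replicate block (adjusted p = 0.0621). Icos, a costimulatory receptor, had 28.9, 18.4 and 17.7 CPM in DP and 7.04, 8.26, 9.71, 9.55 and 9.23 CPM in OP9 CD8 and fell by 1.31 ± 0.24 (adjusted p = 8.92e-05). Cd69, the early activation marker of selected cells, was low and overlapped, at 16.5 to 24.4 CPM in OP9 CD8 and 18.3 to 25.7 CPM in DP. Cd5, whose level follows receptor signal strength, had 78.6, 58.2 and 63.4 CPM in DP and 55.99, 55.4, 55.9, 56.4 and 57.5 CPM in OP9 CD8 and did not pass at -0.25 ± 0.13 (adjusted p = 0.514). Egr1 and Nr4a1, which receptor signals induce within hours, lay below DP in all OP9 CD8 libraries without passing the test, at -1.09 (adjusted p = 0.428) and -0.82 (adjusted p = 0.616).

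Genes of thymic egress and homing were called in both directions. In the list 2 rose and 5 fell of 39 members tested (5.13% and 12.8%), with a median of -0.19. In 13 members all OP9 CD8 libraries lay below DP (33.3% against 14.8%), and 12 fell in the fit of the 8 libraries alone. There were 2 to 5 (moved by over 1.5 times without DP 1, DP 2, DP 3 or OP9 CD8 1) that fell when single libraries were left out. S1pr1, the egress receptor, had 582, 579 and 545 CPM in DP and 465, 491, 588, 508 and 508 CPM in OP9 CD8 and the groups overlapped. Klf2, the factor that switches on egress genes, overlapped too, at 385 to 531 CPM in OP9 CD8 and 465 to 628 CPM in DP. Ccr7, the receptor for lymph node chemokines, lay at 359 to 427 CPM in OP9 CD8 and 413 to 547 CPM in DP. Ly6c2, a surface protein of mature CD8 cells, had 8.39, 5.61 and 4.05 CPM in DP and 68.4, 65.99, 63.99, 72.5 and 83.01 CPM in OP9 CD8. It rose by 3.56 ± 0.30 (adjusted p = 8.37e-07), under all 17 alternatives. Splenic naive cells held 113 to 136 CPM of it and iRTE cells 82.4 to 248 CPM. Ms4a4b, a membrane protein of T cells that rises with maturation, fell instead, from 972 ± 214 (SD, n = 3) to 618 ± 41.1 CPM (SD, n = 5), with a log2 change of -0.65 ± 0.18 (adjusted p = 0.00202). Ccr9, a chemokine receptor of CD4+CD8+ thymocytes, had 337, 377 and 382 CPM in DP and 276, 278, 315, 270.04 and 269 CPM in OP9 CD8. The log2 change of -0.37 ± 0.071 (adjusted p = 0.0423) was small, and the call did not hold without DP 1, DP 2, DP 3, OP9 CD8 1, OP9 CD8 2, OP9 CD8 4 or OP9 CD8 5 (adjusted p = 0.0509 to 0.143) or under 4 other settings (adjusted p = 0.0592 to 0.102).

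MHC class I genes, which thymocytes gain as they mature, were partly higher. In the presentation list 8 rose and 2 fell of 25 members tested (32.0% rose), with 5 to 9 (moved by over 1.5 times without DP 1, DP 2 or DP 3) rising when single libraries were left out. H2-Q7, a nonclassical class I gene, had 7.61, 4.1 and 4.62 CPM in DP and 44.4, 51.9, 45.8, 46.1 and 61.1 CPM in OP9 CD8. It rose by 3.20 ± 0.28 (adjusted p = 6.14e-06), and H2-Q genes are close copies that can share reads. H2-K1, a classical heavy chain, had 511, 510.1 and 480.02 CPM in DP and 654, 682, 719.7, 707 and 773 CPM in OP9 CD8. It rose by 0.50 ± 0.05 (adjusted p = 0.00249), and lay below the 1733 to 2201 CPM of iRTE and the 4755 to 5372 CPM of splenic cells. Nlrc5, the activator of class I genes, rose by 0.81 ± 0.13 (adjusted p = 0.00152), and Tap2, a subunit of the peptide transporter, rose by 0.66 ± 0.052 (adjusted p = 0.000422). The 2 that fell, H2-T3 and H2-Q10, had group means below 1 CPM, and the calls did not hold without DP 2 (adjusted p = 0.0761) or in limma-voom (adjusted p = 0.0768) for H2-T3, and without DP 1, DP 3, OP9 CD8 1, OP9 CD8 3 or OP9 CD8 5 (adjusted p = 0.0714 to 0.234) or under 3 other settings (adjusted p = 0.0551 to 0.0777) for H2-Q10. B2m, the shared light chain, overlapped at 1116 to 1257 CPM in OP9 CD8 and 1042 to 1700.4 CPM in DP.

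Single effector genes rose strongly while others fell or did not pass. Of the cytotoxic effector list, 4 rose and 6 fell of 37 members tested (10.8% and 16.2%), with a median of 0.20. Gzma, a granzyme, had 139.5, 85.1 and 101 CPM in DP and 1043, 945, 848, 969 and 933 CPM in OP9 CD8. The lowest OP9 CD8 library held 6 times the highest DP library, and the log2 change was 3.13 ± 0.21 (adjusted p = 0.000682). Ccl5, a chemokine of effector and memory CD8 cells, had 28.5, 12.7 and 14.7 CPM in DP and 317, 344, 360.5, 384 and 404 CPM in OP9 CD8. It rose by 4.28 ± 0.36 (adjusted p = 2.7e-06), under all 17 alternatives. Gzmm, another granzyme, had 1.04, 1.42 and 0.891 CPM in DP and 10.4, 13.5, 15.3, 12.8 and 10.98 CPM in OP9 CD8, and rose by 3.48 ± 0.20 (adjusted p = 0.00109). S100a6, a calcium-binding protein found in effector cells, had 40.9, 31.2 and 31.4 CPM in DP and 243, 278, 266, 286 and 303 CPM in OP9 CD8 and rose by 2.99 ± 0.14 (adjusted p = 5.79e-05).

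Other members of the effector list went the other way. S100a4, a relative of S100a6, had 539, 274 and 314 CPM in DP and 65.9, 78.4, 65.5, 78.7 and 93.7 CPM in OP9 CD8. It fell by 2.30 ± 0.31 (adjusted p = 5.22e-05), opposite to S100a6, with DP 1 the highest library. Lgals3, a galectin, had 236, 191 and 191 CPM in DP and 47.4, 57.4, 51.1, 53.6 and 61.1 CPM in OP9 CD8 and fell by 1.93 ± 0.12 (adjusted p = 4.32e-05). S100a11 fell by 1.34 ± 0.21 (adjusted p = 0.000639). Gzmb, the granzyme of activated killer cells, had 104, 106 and 91.8 CPM in DP and 46.3, 63.2, 35.8, 54.3 and 61.05 CPM in OP9 CD8, below DP in every library without passing at -0.95 ± 0.16 (adjusted p = 0.241). Prf1, perforin, was low and overlapped, at 10.5 to 15.5 CPM in OP9 CD8 and 10.6 to 17 CPM in DP. Nkg7, a granule protein, overlapped at 668 to 828 CPM in OP9 CD8 and 538 to 848 CPM in DP. Gzmk had no count in either group, and Ifng, the effector cytokine, stayed below 1 CPM in all 8 libraries.

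Over all 18 libraries, the factors that drive effector genes did not pass the test. Tbx21, which encodes T-bet, had 3.89, 6.28 and 6.32 CPM in DP and 13.5, 15.4, 14.3, 21.5 and 15.7 CPM in OP9 CD8. It did not overlap, and the change of 1.55 ± 0.25 (adjusted p = 0.182) missed the threshold, though it passed under 1 of the 17 alternatives. Eomes, its relative, had 30.5, 46.2 and 40.01 CPM in DP and 34, 35.03, 49.7, 46.6 and 61.5 CPM in OP9 CD8 with overlap. Il2rb, a chain of the interleukin-2 and interleukin-15 receptors and a known target of Eomes and T-bet, had 319, 387 and 388 CPM in DP and 449.8, 533, 498, 532 and 541 CPM in OP9 CD8. It was higher in every OP9 CD8 library without passing, at 0.49 ± 0.11 (adjusted p = 0.0922). Cxcr3, a chemokine receptor of effector CD8 cells, had 28.6, 20.2 and 20.8 CPM in DP and 86.7, 108, 97.03, 111 and 115 CPM in OP9 CD8. It rose by 2.16 ± 0.18 (adjusted p = 0.000328), under all 17 alternatives. S1pr5, a receptor of circulating killer cells, had no count in DP and 0.247 to 2.66 CPM in OP9 CD8. Its OP9 CD8 mean was at least 4.45-fold higher against the floor of 3 counts per library. OP9 CD8 2, at 0.247 CPM, lay below the highest DP floor of 0.259 CPM. Cd44, a marker of antigen-experienced cells, was near 2 CPM in both groups.

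**Figure D3:**
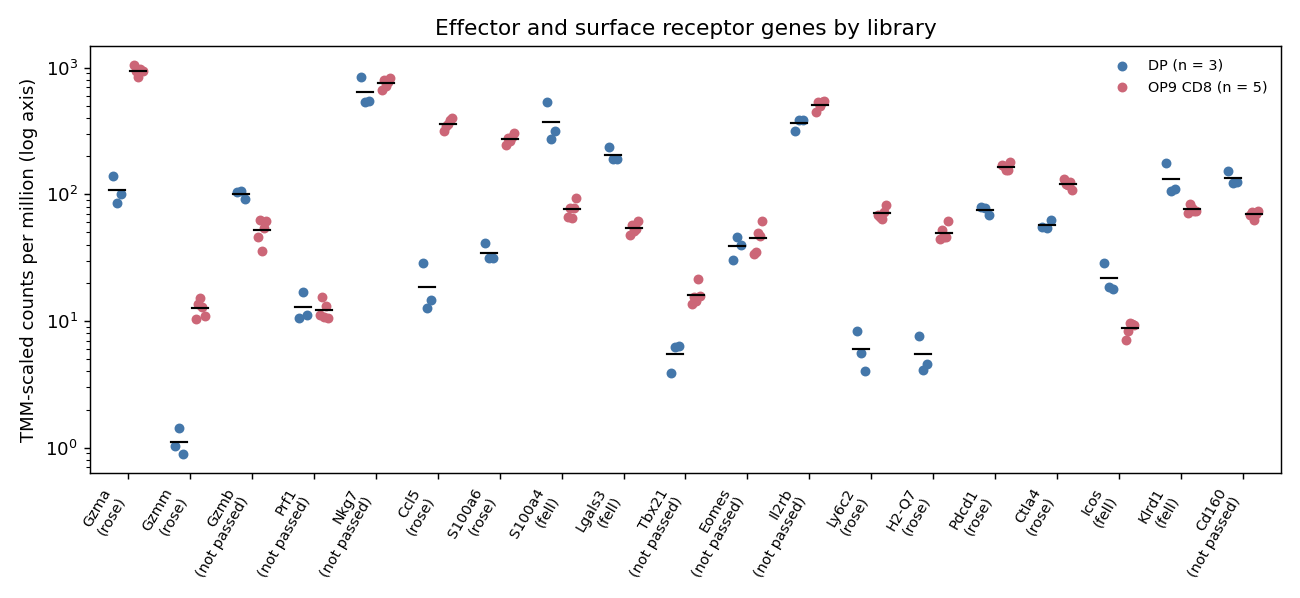
TMM-scaled CPM of 19 effector and surface receptor genes in each DP and OP9 CD8 library on a log axis, with a bar at each group mean and the outcome of the edgeR test under each name. Gzma, Gzmm, Ccl5, S100a6, Ly6c2, H2-Q7, Pdcd1 and Ctla4 lie higher in all OP9 CD8 libraries, while S100a4, Lgals3, Icos and Klrd1 lie lower.

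Receptors that restrain T cells were among those that rose. Pdcd1, the gene of PD-1, had 79.6, 78.4 and 68.4 CPM in DP and 169.6, 169, 155, 156 and 179.9 CPM in OP9 CD8. All OP9 CD8 libraries lay about 2-fold above DP, at 1.14 ± 0.081 (adjusted p = 0.0065). Ctla4, a second inhibitory receptor, had 55.1, 53.8 and 62.8 CPM in DP and 131, 120.4, 119, 125 and 108 CPM in OP9 CD8 and rose by 1.08 ± 0.083 (adjusted p = 5.04e-05). Lag3 was near 0 in both groups and was not tested. Foxp3, the factor of regulatory T cells, which was picked after its values were seen, had 24.6, 14.1 and 14.7 CPM in DP and 27.8, 27.5, 27.7, 29.1 and 31.9 CPM in OP9 CD8, with no overlap. Of the inhibitory and costimulatory list, 3 rose and 5 fell of 23 members tested. Those that fell included Cd48, a ligand of the 2B4 receptor, at -0.68 ± 0.10 (adjusted p = 0.000216), and Cd96, an inhibitory receptor for nectins, at -0.82 ± 0.15 (adjusted p = 0.00204).

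Members of the wider list of NK and innate-like receptor genes passed the test as lower only, while the median of the list was above 0. In that list 0 rose and 5 fell of 28 members tested by edgeR, with a median of 0.32. In 8 members all OP9 CD8 libraries lay above DP (28.6% against 14.2%) and in 9 below (32.1% against 14.8%). In the fit of the 8 libraries alone 7 rose and 9 fell. For rises over all 18 libraries the count was 5 at an unadjusted p under 0.05, 5 by DESeq2 and 5 by limma-voom. With single libraries left out 2 to 4 (moved by over 1.5 times without DP 1, OP9 CD8 1, OP9 CD8 2, OP9 CD8 3 or OP9 CD8 4) fell. Klrd1, the gene of CD94, had 177, 106 and 110.4 CPM in DP and 71.7, 83.7, 78.4, 74.4 and 73.7 CPM in OP9 CD8 and fell by 0.78 ± 0.24 (adjusted p = 0.0076), which did not hold without DP 1 (adjusted p = 0.0849). Slamf6, a receptor that supports innate-like T cells, had 591, 471 and 440.3 CPM in DP and 245, 255, 279, 246 and 277 CPM in OP9 CD8 and fell by 0.94 ± 0.13 (adjusted p = 0.000302). Nfil3, Hcst and Cd7 were the other members that fell, at adjusted p of 0.00891, 0.0388 and 0.042. The Hcst call did not hold under 8 of the 17 alternatives, and the Cd7 call under 13. Cd160 had 154, 123 and 125 CPM in DP and 68.3, 72.6, 62.6, 70.5 and 73.5 CPM in OP9 CD8, below DP in all libraries without passing. Zbtb16, the factor PLZF of innate-like T cells, overlapped at 6.14 to 14.4 CPM in OP9 CD8 and 5.02 to 7.21 CPM in DP.

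Constant genes of the gamma chain were abundant in both groups although the sort gated out the gamma-delta receptor. Tcrg-C1 had 586, 379 and 368 CPM in DP and 1073, 984, 896, 982 and 1077 CPM in OP9 CD8. It rose by 1.17 ± 0.22 (adjusted p = 0.000745), while Tcrg-C2, a close copy, had 1013, 1051 and 1076 CPM in DP and 1044, 1022, 992, 1023 and 1143 CPM in OP9 CD8 with overlap. Tcrg-C3 rose by 1.59 ± 0.17 (adjusted p = 0.0421), which did not hold without DP 1, DP 2, DP 3, OP9 CD8 1, OP9 CD8 2, OP9 CD8 3, OP9 CD8 4 or OP9 CD8 5 (adjusted p = 0.057 to 0.136) or with no low-count filter (adjusted p = 0.0848). Tcrg-C4 overlapped at 333 to 403 CPM in OP9 CD8 and 367 to 431 CPM in DP. The gamma constant genes resemble each other, so reads can be split between them. Blk, a kinase of B and gamma-delta cells, rose from 3.11 ± 1.24 to 16.5 ± 3.13 CPM, by 2.4 ± 0.33 (adjusted p = 0.0191), which did not hold without DP 2 or DP 3 (adjusted p = 0.0772 to 0.0879). The delta constant gene was not analysed here. Splenic naive cells held 17.6 to 22.5 CPM of Tcrg-C1.

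Cytokine signalling genes were divided. In the list 4 rose and 8 fell of 38 members tested (21.1% fell), with 4 to 8 (moved by over 1.5 times without DP 2, DP 3, OP9 CD8 1, OP9 CD8 2 or OP9 CD8 4) that fell when single libraries were left out. The number that rose was then 2 to 3 (moved by over 1.5 times without DP 1, DP 2, DP 3, OP9 CD8 3, OP9 CD8 4 or OP9 CD8 5). Socs2, a STAT5 target, had 39.5, 53.4 and 57.8 CPM in DP and 95.7, 104, 86.6, 98.2 and 88.5 CPM in OP9 CD8 and rose by 0.91 ± 0.17 (adjusted p = 0.00143). Pim2, a survival kinase induced by cytokines, had its DP mean at 901 ± 118 CPM and its OP9 CD8 mean at 344 ± 44.05 CPM, with a log2 change of -1.39 ± 0.14 (adjusted p = 0.00542). Pim1, its relative, moved the other way by 1.41 ± 0.26 (adjusted p = 0.0375), which did not hold without DP 1, DP 2, DP 3, OP9 CD8 3, OP9 CD8 4 or OP9 CD8 5 (adjusted p = 0.0639 to 0.132) or under 3 other settings (adjusted p = 0.0688 to 0.0808). The 2 chains of the interferon-gamma receptor also moved apart, with Ifngr1 at 0.58 ± 0.025 (adjusted p = 0.00479) and Ifngr2 at -0.99 ± 0.089 (adjusted p = 0.00656). Stat4, which carries interleukin-12 signals, fell by 0.81 ± 0.089 (adjusted p = 0.00049). Il7r, the interleukin-7 receptor, overlapped at 90.8 to 139 CPM in OP9 CD8 and 98.9 to 105 CPM in DP.

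Interferon-response genes had no common direction: 4 rose and 4 fell of 52 members tested, shares of 7.69% each way that are close to the background. With single libraries left out 2 to 3 (moved by over 1.5 times without DP 1) rose and 2 to 4 (moved by over 1.5 times without DP 1) fell. Ifitm1, a membrane protein that blocks virus entry, had 3554, 2062 and 2093 CPM in DP and 662, 795, 709, 794 and 887 CPM in OP9 CD8. It fell by 1.74 ± 0.27 (adjusted p = 0.0125), which did not hold without DP 1 (adjusted p = 0.0715) or in DESeq2 (adjusted p = 0.284). Samhd1, which degrades nucleotides, had 443, 424 and 399.6 CPM in DP and 197, 201, 216, 204 and 215 CPM in OP9 CD8 and fell by 1.03 ± 0.05 (adjusted p = 5.05e-06). Cmpk2, an interferon-induced kinase, rose by 1.34 ± 0.23 (adjusted p = 0.0143), which did not hold without DP 1 (adjusted p = 0.0816) or in limma-voom (adjusted p = 0.0885).

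Few cell-cycle genes passed the test, at shares below the background in each direction. Of 50 replication and S-phase genes tested, 2 rose and 2 fell, with a median of 0.33. In 42 of the 50 the fitted change was positive, and in 23 all OP9 CD8 libraries lay above DP (46.0% against a background of 14.2%). Of 45 mitosis genes tested, 3 fell and none rose by edgeR (0 at an unadjusted p under 0.05, 0 by DESeq2 and 0 by limma-voom), with a median of -0.30. In 43 of the 45 the change was negative, and in 17 all OP9 CD8 libraries lay below DP (37.8% against 14.8%). In the fit of the 8 libraries alone, 21 replication genes rose and 15 mitosis genes fell. That fit also filtered the genes anew, and of all 12822 it tested 1650 rose and 1712 fell.

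Dut, which keeps uracil out of DNA, had 168, 105 and 111 CPM in DP and 252, 218, 193, 239 and 243 CPM in OP9 CD8. It rose by 0.84 ± 0.23 (adjusted p = 0.0138), a call that did not hold without DP 2 or DP 3 (adjusted p = 0.0703 to 0.0759). Cdt1, a licensing factor of replication origins, rose by 0.55 ± 0.10 (adjusted p = 0.0115), which did not hold without DP 2 or DP 3 (adjusted p = 0.0511 to 0.054). Cenpf, a kinetochore protein of G2 and mitosis, had 78.1, 97.1 and 93.9 CPM in DP and 38.8, 32.4, 32.4, 37.2 and 24.8 CPM in OP9 CD8 and fell by 1.44 ± 0.15 (adjusted p = 0.00891). Racgap1, needed for cytokinesis, had 489, 538 and 507 CPM in DP and 303, 320.3, 277, 324 and 314 CPM in OP9 CD8 and fell by 0.73 ± 0.057 (adjusted p = 8.5e-05). Mki67, the proliferation marker Ki-67, had 256, 173 and 218 CPM in DP and 105, 101, 109, 106 and 108 CPM in OP9 CD8. All OP9 CD8 libraries were below DP, without passing at -1.02 ± 0.16 (adjusted p = 0.192). Both groups still held transcripts of dividing cells, beside 18.8 to 36.3 CPM of Mki67 in splenic naive cells.

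**Figure D4:**
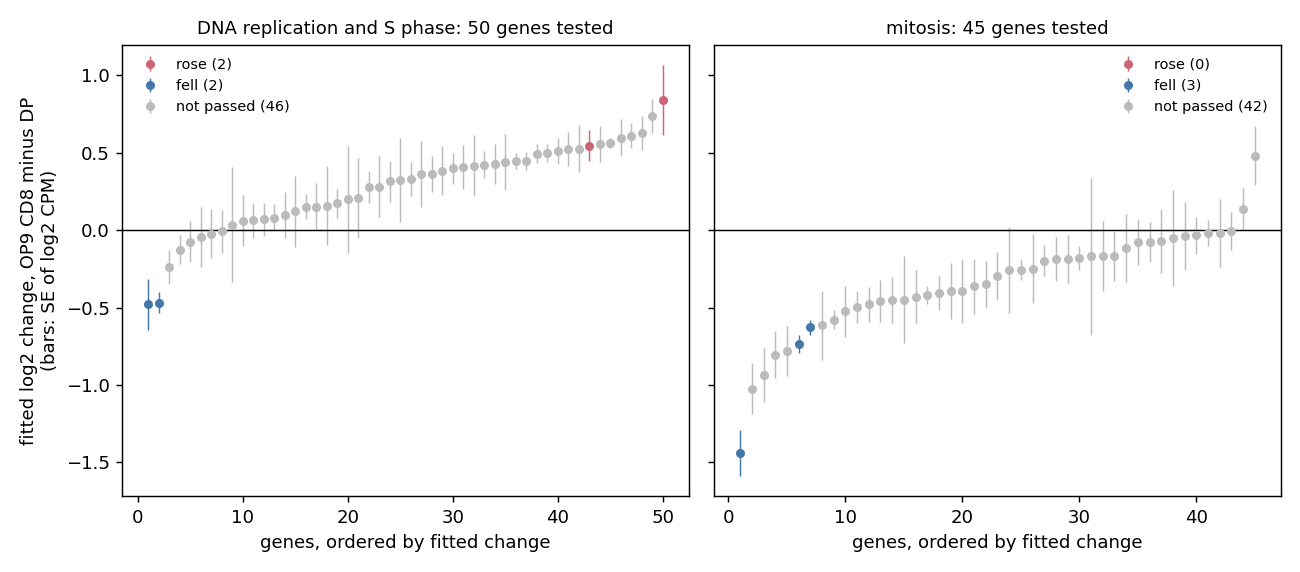
Fitted log2 change of OP9 CD8 relative to DP for 50 replication and S-phase genes and 45 mitosis genes, each ordered by its change, with bars of ± 1 SE of log2 CPM and colour for the outcome of the edgeR test. Most replication genes lie above 0 and most mitosis genes below it, and few of either passed.

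Among the G1 regulators 4 rose and 5 fell of 34 members tested, and 1 to 4 (moved by over 1.5 times without DP 1, DP 2 or DP 3) rose when single libraries were left out. Ccnd3, the D cyclin of pre-T-cell expansion, had 969, 708 and 693 CPM in DP and 408, 371, 357, 435 and 455 CPM in OP9 CD8. It fell by 0.96 ± 0.17 (adjusted p = 8.17e-05), under all 17 alternatives. Its partner kinases rose, Cdk4 by 0.79 ± 0.18 (adjusted p = 0.0163) and Cdk6 by 0.78 ± 0.06 (adjusted p = 0.0196). The Cdk4 call did not hold without DP 2 or DP 3 (adjusted p = 0.0651 to 0.0859). The Cdk6 call did not hold without DP 1, DP 2 or DP 3 (adjusted p = 0.0574 to 0.0685). Ccnd2 overlapped at 185 to 216 CPM in OP9 CD8 and 159.8 to 212 CPM in DP. Antagonists of Myc fell, with log2 changes of -0.93 ± 0.17 (adjusted p = 0.00472) for Mxd4, -0.86 ± 0.043 (adjusted p = 0.0131) for Mxi1 and -0.79 ± 0.22 (adjusted p = 0.0251) for Mxd1. The Mxi1 call did not hold without DP 1 (adjusted p = 0.0504), nor the Mxd1 call without DP 2, DP 3, OP9 CD8 1 or OP9 CD8 4 (adjusted p = 0.0552 to 0.119). Myc itself had 208, 206 and 198 CPM in DP and 235, 229, 222, 231 and 235 CPM in OP9 CD8, higher in every OP9 CD8 library without passing at 0.18 ± 0.027 (adjusted p = 0.687).

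Amino acid response genes were the list with the highest share of rises. These genes, many of them targets of the factor ATF4, import amino acids, make serine, glycine, proline and asparagine, or act in the stress response that follows their shortage. Of 27 members tested, 17 rose (63.0% against 6.54% of all genes) and 1 fell, with a median log2 change of 1.01. In 23 members all OP9 CD8 libraries lay above DP. The number that rose was 14 to 16 with single libraries left out, 23 in the fit of the 8 libraries alone and 8 with DP 1 as the only DP library.

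Among the synthetic enzymes, Asns, asparagine synthetase, had 64.4, 38.2 and 46.2 CPM in DP and 218, 210.2, 202, 219.7 and 226 CPM in OP9 CD8. The OP9 CD8 libraries lay within a narrow range 3-fold or more above DP, at 2.12 ± 0.22 (adjusted p = 0.00137). Splenic naive cells held at most 0.241 CPM of Asns and iRTE cells 4.98 to 23.99 CPM. Gpt2, a mitochondrial alanine transaminase, had 3.89, 7.62 and 8.42 CPM in DP and 40.1, 41.8, 39.9, 38.8 and 49.6 CPM in OP9 CD8 and rose by 2.66 ± 0.35 (adjusted p = 0.00127). Psat1 and Phgdh of serine synthesis rose by 1.26 ± 0.11 (adjusted p = 0.0112) and 0.67 ± 0.11 (adjusted p = 0.0234), calls that did not hold without DP 2 (adjusted p = 0.0558) for Psat1 and without DP 2 or DP 3 (adjusted p = 0.0813 to 0.0954) for Phgdh. Shmt2, which turns serine into glycine in mitochondria, rose by 0.82 ± 0.17 (adjusted p = 0.00103). Pycr1, the last enzyme of proline synthesis, had 1.99, 1.01 and 2.75 CPM in DP and 5.39, 5.8, 4.8, 9.4 and 10.98 CPM in OP9 CD8. It rose by 1.92 ± 0.46 (adjusted p = 0.0449), and the call did not hold without DP 1, DP 2, DP 3, OP9 CD8 1, OP9 CD8 2, OP9 CD8 3, OP9 CD8 4 or OP9 CD8 5 (adjusted p = 0.0521 to 0.17), with no low-count filter (adjusted p = 0.0591) or with the replicate block (adjusted p = 0.119).

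Transporters for several kinds of amino acid rose too. Slc7a5, the large neutral amino acid carrier of activated T cells, had 150.3, 149 and 166 CPM in DP and 429, 357, 379.6, 393 and 396 CPM in OP9 CD8 and rose by 1.33 ± 0.065 (adjusted p = 3.79e-06). Its heavy chain Slc3a2 rose by 0.74 ± 0.089 (adjusted p = 0.00106). Slc7a3, a carrier of cationic amino acids, had 0.259, 0 and 1.05 CPM in DP and 27.7, 31.1, 20.5, 27.1 and 28.98 CPM in OP9 CD8. It was almost absent from DP, with a log2 change of 5.91 ± 0.91 (adjusted p = 0.00273) that was 7.64 without DP 3. Slc38a2 rose by 1.15 ± 0.10 (adjusted p = 0.0025) and Slc7a1 by 1.01 ± 0.083 (adjusted p = 8.17e-05). The neutral amino acid carriers Slc1a4 and Slc1a5 lay above DP in every OP9 CD8 library without passing, at 1.89 ± 0.23 (adjusted p = 0.178) and 0.29 ± 0.076 (adjusted p = 0.435). Slc7a11, the cystine carrier, had 3.72, 10.4 and 5.02 CPM in DP and 0.796, 0.185, 0.0592, 2.44 and 1.55 CPM in OP9 CD8. It fell by 2.64 ± 0.82 (adjusted p = 0.0274), which did not hold without DP 2, DP 3, OP9 CD8 1 or OP9 CD8 2 (adjusted p = 0.0538 to 0.158) and was -3.27 without OP9 CD8 4. Of the stress regulators, Trib3, a pseudokinase that ATF4 induces, had 4.24, 3.27 and 7.37 CPM in DP and 12.4, 13.6, 10.2, 16.9 and 15.1 CPM in OP9 CD8 and rose by 1.46 ± 0.36 (adjusted p = 0.00586). Chac1, which degrades glutathione, had 1.56, 1.42 and 0.486 CPM in DP and 10.05, 7.77, 7.22, 6.25 and 9.49 CPM in OP9 CD8 and rose by 2.81 ± 0.48 (adjusted p = 0.015), which did not hold without DP 3 (adjusted p = 0.0726). The mRNA of Atf4 itself overlapped at 139, 99.9 and 121 CPM in DP and 124, 128, 118, 137 and 142 CPM in OP9 CD8, and Ddit3, which encodes CHOP, overlapped at 7.58 to 13.6 CPM in OP9 CD8 and 8.63 to 13.1 CPM in DP.

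**Figure D5:**
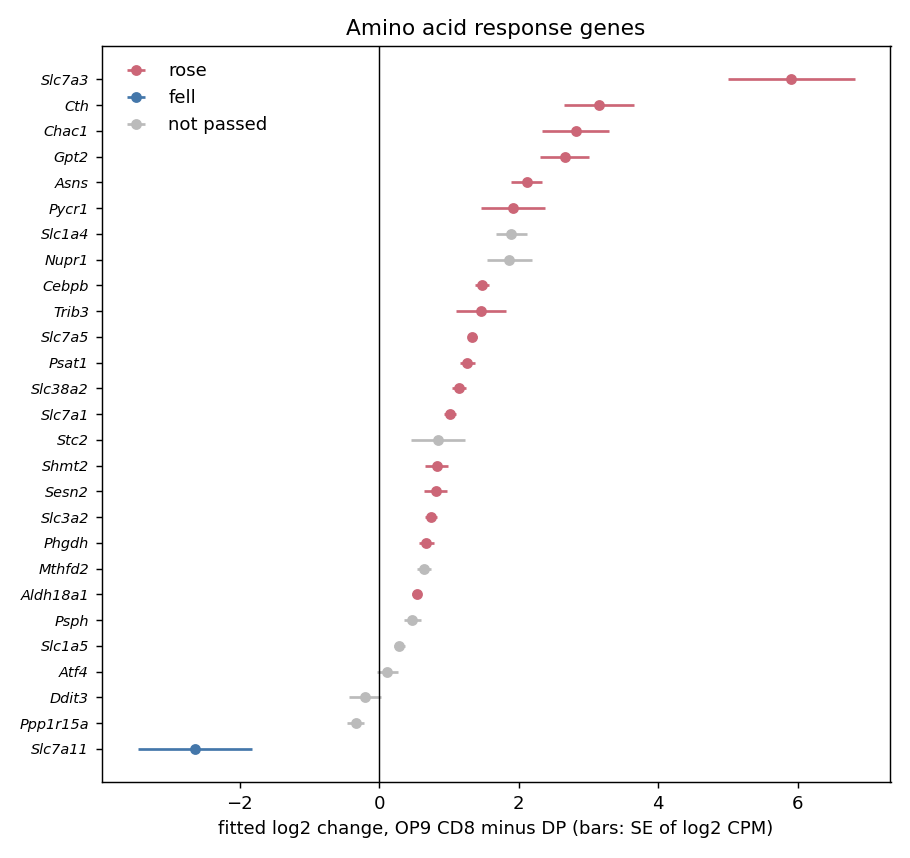
Fitted log2 change of OP9 CD8 relative to DP for the 27 amino acid response genes tested, with bars of ± SE of log2 CPM and colour for the outcome of the edgeR test. Of these, 17 lie to the right and passed, Slc7a11 lies to the left and passed, and Atf4 lies near 0.

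The letters TGATGNAA, which ATF4 and C/EBP dimers are known to bind in genes of this response, were searched on both strands of RefSeq promoters (GRCm38.p6, 250 bases before to 50 after the start, first listed promoter per gene). They were found in 4 of 14 matched promoters of the 17 genes that rose (28.6%), those of Trib3, Asns, Chac1 and Pycr1. Among all genes tested, 210 of 9398 matched promoters held them (2.23%), among genes at least 2-fold higher 15 of 318 (4.72%) and among genes at least 2-fold lower 9 of 224 (4.02%). A match is a description of letters, not a measured site. The list was made of known genes of this response, so a share above that of all genes follows from its choice. It says nothing on why its members rose. The promoter of Slc7a11, the member that fell, held the letters too, and the members not called were not counted as a set. Of these promoters 3 are shown, for genes with values above, as the 250 bases before the start, 5′ to 3′ on the strand of the gene, with the match in capitals. They lie at chr6:7693210-7693459 (minus strand) for Asns, chr2:119350992-119351241 (plus strand) for Chac1 and chr11:120643749-120643998 (minus strand) for Pycr1.
Asns: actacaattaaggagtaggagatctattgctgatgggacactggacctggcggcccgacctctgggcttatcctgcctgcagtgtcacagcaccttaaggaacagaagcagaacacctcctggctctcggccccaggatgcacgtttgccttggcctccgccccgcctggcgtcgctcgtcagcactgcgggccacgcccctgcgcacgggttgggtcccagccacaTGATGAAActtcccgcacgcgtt
Chac1: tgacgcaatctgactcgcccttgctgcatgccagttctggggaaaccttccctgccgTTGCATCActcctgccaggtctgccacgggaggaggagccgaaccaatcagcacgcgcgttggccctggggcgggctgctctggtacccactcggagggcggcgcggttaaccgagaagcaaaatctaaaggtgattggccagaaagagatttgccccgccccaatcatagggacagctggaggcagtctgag
Pycr1: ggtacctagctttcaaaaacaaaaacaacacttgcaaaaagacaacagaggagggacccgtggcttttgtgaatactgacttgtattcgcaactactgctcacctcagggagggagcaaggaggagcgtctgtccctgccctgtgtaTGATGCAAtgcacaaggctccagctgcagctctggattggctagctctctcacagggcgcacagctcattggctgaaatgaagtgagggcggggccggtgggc
The match begins 23 bases before the start in Asns, 193 in Chac1 and 103 in Pycr1, and in Chac1 it is on the opposite strand.

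Chaperones of the endoplasmic reticulum also rose. Of that list, 9 rose and 1 fell of 24 members tested (37.5% rose), with a median of 0.40. Hyou1, a chaperone, had 41.9, 88.3 and 85.5 CPM in DP and 198, 165, 204, 183 and 138 CPM in OP9 CD8 and rose by 1.30 ± 0.37 (adjusted p = 0.0002). Edem1, which marks misfolded proteins for disposal, rose by 0.83 ± 0.13 (adjusted p = 0.00107), and Pdia6, a disulfide isomerase, rose by 0.81 ± 0.094 (adjusted p = 0.00262). The member that fell was Xbp1, a factor that induces many chaperones, at -0.53 ± 0.16 (adjusted p = 0.0468), which did not hold without DP 1, DP 2, DP 3, OP9 CD8 1, OP9 CD8 2, OP9 CD8 3, OP9 CD8 4 or OP9 CD8 5 (adjusted p = 0.0525 to 0.252) or under 4 other settings (adjusted p = 0.0558 to 0.0816).

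Glycolysis and lipid synthesis genes rose in part. For glycolysis 7 rose and 1 fell of 23 members tested (30.4% rose), with a median of 0.42. Slc16a1, a lactate carrier, rose by 0.99 ± 0.10 (adjusted p = 0.000307), and Pkm, pyruvate kinase, rose by 0.76 ± 0.077 (adjusted p = 0.00143). Ldhb, the heart-type lactate dehydrogenase subunit, had 264, 234 and 233 CPM in DP and 44.4, 43.4, 49.3, 44.2 and 55.7 CPM in OP9 CD8. It fell by 2.36 ± 0.089 (adjusted p = 5.14e-05), under all 17 alternatives. The glucose carrier Slc2a1 had 71.9, 72.4 and 68.6 CPM in DP and 79.7, 73.3, 82.9, 78.5 and 88.1 CPM in OP9 CD8, above DP in every library without passing at 0.18 ± 0.05 (adjusted p = 0.365). For cholesterol and fatty acid synthesis 6 rose and 0 fell of 31 members tested (19.4% rose), and falls by edgeR were 0 (0 at an unadjusted p under 0.05, 0 by DESeq2 and 0 by limma-voom). Scd2, a fatty acid desaturase, had 232, 250.4 and 278 CPM in DP and 809, 717, 727, 767 and 652 CPM in OP9 CD8 and rose by 1.54 ± 0.092 (adjusted p = 5.05e-06). Fasn, fatty acid synthase, rose by 0.70 ± 0.11 (adjusted p = 0.000269). Sqle, of the cholesterol branch, overlapped at 127 to 153 CPM in OP9 CD8 and 133 to 157 CPM in DP.

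Of 39 respiratory chain genes none was called by edgeR in either direction. For rises the count was 0 at an unadjusted p under 0.05, 0 by DESeq2 and 0 by limma-voom, and for falls 2 at an unadjusted p under 0.05, 0 by DESeq2 and 0 by limma-voom. In the hypoxia list 1 rose and 1 fell of 21 members tested. The rise was Vegfa, a vessel growth factor, at 1.82 ± 0.37 (adjusted p = 0.0126), which did not hold without DP 1 or DP 2 (adjusted p = 0.0522 to 0.0729). The fall was Bnip3l, a mitophagy receptor, at -0.45 ± 0.082 (adjusted p = 0.00261).

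Targets of p53 and members of the Bcl2 family were divided at 7 rose and 6 fell of 29 members tested, and 3 to 6 (moved by over 1.5 times without DP 1) fell when single libraries were left out. Zmat3, a p53 target that binds RNA, had 19.98, 6.7 and 13.8 CPM in DP and 43.1, 48.3, 42.1, 51.3 and 41.5 CPM in OP9 CD8 and rose by 1.74 ± 0.46 (adjusted p = 0.00273). Bbc3, which encodes the death protein PUMA, rose by 0.90 ± 0.12 (adjusted p = 0.00228). Gadd45g, a stress and signal response gene, had 71.4, 52.6 and 58.7 CPM in DP and 3.31, 4.69, 4.74, 5.79 and 9.49 CPM in OP9 CD8. It fell by 3.44 ± 0.28 (adjusted p = 0.0028), under all 17 alternatives. Cdkn1a, the p53 target p21, had 20.8, 13.7 and 13.3 CPM in DP and 45.9, 39.4, 25.7, 45.9 and 43 CPM in OP9 CD8, above DP in every library without passing at 1.33 ± 0.26 (adjusted p = 0.121).

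The largest rises by fitted log2 change were of genes nearly absent from DP, which such a ranking favours. Smpdl3a, a nucleotide phosphodiesterase of the sphingomyelinase family, had no count in DP and 20.6, 28.1, 25.9, 16.6 and 25.4 CPM in OP9 CD8, at least 89.8-fold higher in the mean. Ldoc1l had no count in DP and 22.97, 7.96, 13.9, 16.6 and 13.6 CPM in OP9 CD8, at least 57.8-fold higher in the mean. Evc, a ciliary protein of Hedgehog signalling, had no DP count either and was at least 52.5-fold higher in the mean. Cdh13, an anchored cadherin, had 1.64, 1.01 and 2.27 CPM in DP and 106, 102, 115, 111 and 97.2 CPM in OP9 CD8. It rose by 6.01 ± 0.32 (adjusted p = 1.24e-05), and iRTE and splenic cells held at most 3.93 and 0.648 CPM. Gldc, the glycine decarboxylase, had 1.56, 0.586 and 0.243 CPM in DP and 48.9, 55.4, 59.9, 39.4 and 39.8 CPM in OP9 CD8 and rose by 5.93 ± 0.64 (adjusted p = 1.97e-05). The desmosome genes Dsg2 and Pkp3 rose by 7.44 ± 0.71 (adjusted p = 0.000459) and 5.37 ± 0.38 (adjusted p = 2.81e-08). Beside these and Slc7a3, described above, Pogk, Klhl22, Zfp783 and Abhd14a complete the 12 leading rises, with fitted changes of 6.72, 5.50, 5.25 and 4.98. Splenic cells held more than any OP9 CD8 library of Smpdl3a (99.2 to 117 CPM), Pkp3 (80.8 to 107) and Zfp783 (27.98 to 30.4). The splenic range overlapped OP9 CD8 for Ldoc1l (12.8 to 22.5 CPM) and Klhl22 (37.1 to 42.3). It lay below OP9 CD8 for the other leading rises. The iRTE range overlapped OP9 CD8 for Dsg2 (0.498 to 53.5 CPM) and Abhd14a (1.43 to 32.1). Leaving out 1 DP library moved the fold itself, off the log scale, by over 1.5 times for several leading rises. The fitted log2 change became 8.91 for Dsg2 without DP 3 and 7.08 for Klhl22 without DP 2. It became 7.43, 6.85 and 5.98 for Pogk, Gldc and Abhd14a without DP 1.

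The largest falls were led by Kdm5d and Cd4. Kdm5d, a histone demethylase gene on the Y chromosome, had 20.9, 58.2 and 53.4 CPM in DP and 0.123, 3.39, 0, 0.0508 and 0.103 CPM in OP9 CD8. It fell by 5.94 ± 0.97 (adjusted p = 0.0255), which did not hold without DP 2, DP 3, OP9 CD8 1, OP9 CD8 3, OP9 CD8 4 or OP9 CD8 5 (adjusted p = 0.0548 to 0.0616) or with no low-count filter (adjusted p = 0.0974). OP9 CD8 2 held 55 of the 60 counts in OP9 CD8, and without it the change was -9.15 (adjusted p = 0.011). Other Y-linked genes, picked after their values were seen, were present in both groups, with Uty at 34.2, 69.01 and 59.4 CPM in DP and 46.3, 54.1, 54.6, 60.6 and 47.1 CPM in OP9 CD8. Ddx3y lay at 54.4 to 80.8 CPM in OP9 CD8 and 69.4 to 95.6 CPM in DP. Xist, the RNA of the inactive X chromosome, had no count in DP, 1.9, 3.21, 1.01, 1.27 and 0.876 CPM in OP9 CD8 and 76.1 to 115 CPM in splenic cells. Rgl3, a Ral exchange factor, had 38.4, 33.8 and 30.2 CPM in DP and 2.08, 0.185, 1.18, 0.559 and 0.567 CPM in OP9 CD8 and fell by 5.22 ± 0.48 (adjusted p = 6.37e-05). Slfn9 of the Schlafen family had 28.5, 30.7 and 29.2 CPM in DP and 0.796, 2.53, 0.237, 0.508 and 1.03 CPM in OP9 CD8 and fell by 4.85 ± 0.47 (adjusted p = 0.00177). Itga9, an integrin chain, fell by 4.15 ± 0.67 (adjusted p = 0.00133). P2rx1, an ATP-gated channel, fell by 3.46 ± 0.27 (adjusted p = 0.000308). Plxnd1, a semaphorin receptor that guides CD4+CD8+ thymocytes, fell by 3.89 ± 0.49 (adjusted p = 0.00138). Upk1b, Nwd1, Arhgef10l, Nron and Zfyve28 had fitted changes of -4.83, -4.62, -4.42, -3.82 and -3.68. The fold itself, off the log scale, moved by over 1.5 times for several of the leading falls. The fitted log2 change became -5.49 for Slfn9 and -5.76 for Nwd1 without OP9 CD8 2. It became -5.44 for Upk1b without OP9 CD8 4 and -4.84 for Itga9 without OP9 CD8 5.

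Stromal transcripts varied widely within DP. Of 11 stromal genes tested, 4 fell and 1 rose. Fn1, fibronectin, had 0, 15.6 and 21.5 CPM in DP and 0, 1.36, 0.0592, 0 and 0 CPM in OP9 CD8. Col1a1, a collagen chain, had 0, 7.37 and 6.8 CPM in DP and 0, 0, 0.296, 0 and 0.928 CPM in OP9 CD8, and Acta2, smooth muscle actin, had 0.432, 13.5 and 27.8 CPM in DP and 0.858, 1.11, 0.829, 1.73 and 0.98 CPM in OP9 CD8. In each of these 3 genes DP 2 and DP 3 were high and DP 1 lay at or below the OP9 CD8 range, so the calls rest on DP 2 and DP 3. Vcam1 had counts in DP 3 alone. The call for Fn1 did not hold without DP 3 (adjusted p = 0.0533), in DESeq2 (adjusted p = 0.28) or in limma-voom (adjusted p = 0.0976), that for Acta2 without DP 3 (adjusted p = 0.0956) or in limma-voom (adjusted p = 0.125), that for Col1a1 without DP 2, DP 3, OP9 CD8 1, OP9 CD8 2, OP9 CD8 3 or OP9 CD8 4 (adjusted p = 0.0829 to 0.14) or under 4 other settings (adjusted p = 0.0566 to 0.11) and that for Vcam1 without OP9 CD8 1, OP9 CD8 2, OP9 CD8 3, OP9 CD8 4 or OP9 CD8 5 (adjusted p = 0.0641 to 0.0702) or under 3 other settings (adjusted p = 0.051 to 0.202). With DP 1 as the only DP library none of the 4 falls passed. Pdgfrb, a growth factor receptor of stroma, had 1.38, 5.11 and 11.3 CPM in DP and 16.1, 14.4, 23.4, 19.5 and 19.4 CPM in OP9 CD8. It rose by 1.64 ± 0.86 (adjusted p = 0.0356), which did not hold without DP 1, DP 2, OP9 CD8 1, OP9 CD8 3, OP9 CD8 4 or OP9 CD8 5 (adjusted p = 0.0525 to 0.126) or with the replicate block (adjusted p = 0.0717) and was 2.51 without DP 3.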

How the data were processed

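RNA of sorted mouse cells was sequenced, and 8 of 18 libraries (5 OP9 CD8, 3 DP) make up the comparison. The counts are whole numbers per gene symbol that the authors deposited, made, per the submitters' processing notes, with STAR 2.4.2 on build mm9 and Subread. Per the file headers, the alignments were sorted and duplicate-marked. Neither the annotation release nor whether counting used strand is given in the sources used here, so reads of overlapping genes cannot be told apart. A table of log2 values that the authors deposited was not used.

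Genes were filtered with edgeR 4.0.16 in R 4.3.3 (default filter, 13922 of 43280 genes), scaled by TMM and fitted over all 18 libraries with 1 coefficient per group and robust quasi-likelihood dispersions, so that the iRTE and splenic libraries (5 each) share the estimate of the spread. P-values were adjusted by Benjamini-Hochberg over all genes tested, at 0.05. SE are of the difference between group means of log2 CPM (prior count 2) and do not come from the model. Folds against a group with no count divide the mean of the other group by the highest floor of 3 counts per library, which covers counting error only.

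Named genes are (a) the 12 largest called rises and falls whose groups do not overlap and whose higher group averages 10 CPM or more, (b) up to 3 called members of each list per direction, all where 5 or fewer were called, and all tested amino acid response members, and (c) a list of key genes of T-cell development. Genes chosen after their values were seen are marked so, and a few genes under this rule are not reported here. The comparison, the lists and the rule were chosen with earlier results of these data known.

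Alternatives were RLE and upper-quartile scaling, 2 other filters, the 8 libraries alone, DESeq2 1.42.0, voom in limma 3.58.1, a replicate block and leaving out each of the 8 libraries. DP 1 as the only DP library was added after the stromal RNA in DP 2 and DP 3 was seen. In a simulation drawn from the library means, which changed 200 of 13922 genes in this comparison, 57 of 100 2-fold and 81 of 100 4-fold changes were recovered with 5 false calls.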

Additional observations from a re-analysis of the deposited data

Results flagged for a closer look

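Of 231 named genes checked, 20 had a single OP9 CD8 library far from the other 4. The measure was the gap of the extreme library over the range of its group, on log2 CPM with a prior count of 2. Dixon's criterion at 95% was used, which flags about 1 in 20 groups by chance. Values below are plain CPM. OP9 CD8 5 was the extreme library in 9 of the 20, OP9 CD8 3 in 5, OP9 CD8 2 in 3, OP9 CD8 1 in 2 and OP9 CD8 4 in 1. The DP group, with 3 libraries, is too small for this check.

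OP9 CD8 5 was the lowest of its group for Plxnd1 (0.258 CPM, others 1.29 to 2.13), P2rx1 (4.23, others 6.75 to 7.72) and Xrcc4 (7.27, others 11.5 to 13.6). It was also lowest for Ccr10 (0, others 0.306 to 0.533), Iigp1 (0.567, others 2.07 to 2.71) and Tcf12 (301.7, others 368.5 to 394.7). It was the highest library for Cd8a (643.9, others 562.0 to 584.1), Xcl1 (1.44, others 0 to 0.123) and H2-T3 (0.103, others 0).

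OP9 CD8 3 was lowest for Ets2 (35.5 CPM, others 44.7 to 47.4), Scd1 (5.03, others 9.14 to 11.04), Xbp1 (271.7, others 321.9 to 344.7) and Cdkn1a (25.7, others 39.4 to 45.9), and highest for Ccr9 (315.5, others 269.3 to 278.1). OP9 CD8 2 was highest for Kdm5d (3.39 CPM, others 0 to 0.123) and Fn1 (1.36, others 0 to 0.0592), and lowest for Cmpk2 (17.4, others 21.4 to 23.3). OP9 CD8 1 was highest for Cd69 (24.4, others 16.5 to 17.9) and lowest for B2m (1116, others 1216 to 1257). OP9 CD8 4 was lowest for Treml2 (73.0 CPM, others 80.3 to 82.9).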

How the results depend on the processing

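With single libraries left out, 522 to 817 genes were higher in OP9 CD8 (910 with all) and 788 to 956 lower (1131), and the lowest counts came without a DP library. At least 2-fold, 317 (without DP 1) to 472 were higher (506) and 270 to 294 lower (325). Genes without overlap numbered 2068 to 2900 above and 2171 to 3173 below (3173 without DP 1), since fewer libraries overlap less. With the 8 libraries alone 1650 rose and 1712 fell, and 762 rose at least 2-fold. With the 10 CPM filter, which tests fewer genes, 300 rose and 174 fell at least 2-fold. With DP 1 as the only DP library, chosen after seeing the data, 712 fell and 4711 and 4884 did not overlap above and below. Counts under the scalings, DESeq2, limma-voom and no low-count filter stayed within 1.5 times, and scaling moved the median log2 change to at most 0.044. The share of calls that were higher was 44.6% with TMM and 52.99% with upper-quartile scaling.

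Replicate numbers are shared between the groups, and the deviations of same-numbered libraries correlated at -0.046, 0.0015 and -0.011. Libraries with different numbers correlated at -0.027 to 0.038. With so few DP libraries the check cannot tell whether the numbers pair the samples. With the replicate block 826 genes rose and 995 fell, and of named genes that passed, 16 did not pass.

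Fitted log2 changes that changed sign, the cause not tested where no group at 0 is named, were all of values near 0 or of genes with stromal or few counts. With DP 1 as the only DP library they were 1.87 for H2-T3, 1.34 for Acta2, 5.11 for Fn1, 4.95 for Col1a1, 0 for Vcam1 (also 0 without DP 3), where DP 1 held no count except of Acta2, and -0.37 for Ifng, -0.16 for Nkg7, 0.22 for Prf1, -0.045 for Cd44, -0.067 for Ccnd2, 0.085 for Sqle, 0.045 for Dtx1 and -0.088 for Atf4. With the replicate block they were 0.093 for Cd3e, 0.21 for Dtx1, 0.052 for Prf1, 0.068 for B2m and -0.013 for Atf4. Without DP 1 they were 0.14 for Cd3e, -0.051 for Tcf12, -0.0064 for Themis, 0.22 for B2m and 0.017 for Usp18. Without DP 2 they were 0.022 for Dtx1, 0.17 for Prf1, -0.057 for Cd44 and 0.061 for Sqle, and without DP 3 -0.0020 for Ccnd2. With upper-quartile scaling and the 10 CPM filter they were 0.0079 and 0.013 for Cd3e, 0.031 and 0.031 for Dtx1, and 0.023 and 0.022 for Sqle. With RLE scaling and DESeq2 they were 0.010 and 0.010 for Dtx1, and 0.0019 and 0.0019 for Sqle. For Dtx1 they were also 0.0086 with no low-count filter and 0.012, 0.015 and 0.00056 without OP9 CD8 1, 2 and 4, and for Sqle 0.019 without OP9 CD8 3. The other end of the range over single libraries left out was -6.00 for Vcam1, -0.11 for Cd3e, 0.11 for Tcf12, -0.050 for Dtx1, 0.19 for Themis, -0.21 for Prf1, 0.35 for Cd44, 0.19 for Ccnd2, -0.17 for B2m, -0.28 for Usp18 and -0.067 for Sqle. No value of changed sign passed the test.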

Other observations

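Chromatin and imprinted genes were called at shares near the background. In the list of DNA methylation and Polycomb genes 2 rose and 2 fell of 22 members tested (9.09% each way, against 6.54% and 8.12% of all genes), with 1 to 2 (moved by over 1.5 times without DP 1 or DP 3) rising and 1 to 3 (moved by over 1.5 times without DP 2, DP 3, OP9 CD8 1 or OP9 CD8 4) falling when single libraries were left out. Cbx7, a Polycomb reader, had 6.23, 5.61 and 7.21 CPM in DP and 24.6, 26.2, 20.8, 32.7 and 38.5 CPM in OP9 CD8 and rose by 2.17 ± 0.19 (adjusted p = 0.000682). Dnmt3b, a de novo DNA methyltransferase, had 24.6, 39.3 and 29.2 CPM in DP and 56.3, 56.3, 55.6, 46.5 and 69.5 CPM in OP9 CD8 and rose by 0.87 ± 0.22 (adjusted p = 0.0132), which did not hold without DP 1 or DP 3 (adjusted p = 0.0569 to 0.0786). Phc2, a Polycomb subunit, fell by 0.51 ± 0.10 (adjusted p = 0.00112). Of 10 imprinted genes tested, 1 rose and 1 fell. H19, a maternally expressed RNA of fetal tissue, had 9.77, 10.4 and 7.37 CPM in DP and 43.9, 45.5, 38.5, 46.7 and 40.2 CPM in OP9 CD8 and rose by 2.23 ± 0.16 (adjusted p = 0.0115), which did not hold without DP 3 (adjusted p = 0.0577) or in DESeq2 (adjusted p = 0.0565). Snrpn, a paternally expressed gene, had 137, 96.2 and 95.2 CPM in DP and 51.3, 45.6, 59.4, 46.7 and 66.8 CPM in OP9 CD8 and fell by 1.02 ± 0.20 (adjusted p = 0.000255).

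Factors found in naive T cells were divided at 4 rose and 5 fell of 27 members tested, and 3 to 5 (moved by over 1.5 times without DP 1, OP9 CD8 1 or OP9 CD8 3) fell when single libraries were left out. Igfbp4, a secreted protein of naive CD8 cells, had 23.01, 23.1 and 29.7 CPM in DP and 69.7, 64.01, 58.9, 55.6 and 57.6 CPM in OP9 CD8 and rose by 1.27 ± 0.13 (adjusted p = 0.00228). Treml2 rose by 1.13 ± 0.31 (adjusted p = 0.000317) and Dapl1 fell by 2.37 ± 0.36 (adjusted p = 0.0273), which did not hold without DP 1, DP 2, OP9 CD8 1, OP9 CD8 3, OP9 CD8 4 or OP9 CD8 5 (adjusted p = 0.05 to 0.12) or with no low-count filter (adjusted p = 0.0704). Tcf7, the factor TCF-1, had 2304, 2209 and 2151 CPM in DP and 1949.8, 1896, 2041, 2015 and 2042 CPM in OP9 CD8. It was below DP in every OP9 CD8 library and did not pass at -0.16 ± 0.036 (adjusted p = 0.31). Lef1, its relative, was also lower in all 5 without passing, at -0.18 ± 0.059 (adjusted p = 0.504).

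In the NF-kappaB and TGF-beta list 0 rose and 3 fell of 26 members tested, with 3 at an unadjusted p under 0.05, 3 by DESeq2 and 1 by limma-voom for rises. Tgfbr3, a TGF-beta co-receptor, had 21.97, 31.99 and 30.05 CPM in DP and 14.8, 10.7, 13.6, 5.94 and 7.17 CPM in OP9 CD8 and fell by 1.43 ± 0.30 (adjusted p = 0.00776). In the immediate early list 0 rose and 1 fell of 23 members tested by edgeR, with 0 at an unadjusted p under 0.05, 0 by DESeq2 and 0 by limma-voom for rises, while 10 fell in the fit of the 8 libraries alone. Jund, an AP-1 subunit, fell by 0.48 ± 0.091 (adjusted p = 0.0457), which did not hold without DP 1, DP 2, DP 3, OP9 CD8 1, OP9 CD8 2, OP9 CD8 3 or OP9 CD8 4 (adjusted p = 0.0681 to 0.173) or under 4 other settings (adjusted p = 0.0541 to 0.0804).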
